A study of Sus scrofa with 12 samples.

Results

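The cell cycle and DNA replication genes described here were 44 genes that act in S phase and mitosis of a growing liver, and they were compared between the livers of Jinhua (JH) and Landrace (LD) pigs. A row of the mRNA tables belonged to them when its gene symbol was identical to a listed name. By this rule 35 of the 31694 rows were members, and the remaining 9 names had no row of their own. JH is a Chinese breed that grows slowly and deposits much fat, whereas LD is a lean and fast-growing breed that served as the control. Both groups were uncastrated males of 70 days of age with no treatment named, and each group held 3 pigs with 1 liver mRNA library and 1 small RNA library per pig. The libraries were named JH1 to JH3 and LD1 to LD3. Expression was given as RPKM, the reads of a gene scaled to its length and to the depth of the library, so that levels can be set side by side between genes as well as between pigs.

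A dividing cell first passes the restriction point, where cyclin D and cyclin E release the E2F factors from the retinoblastoma protein, and E2F then turns on the genes that license and copy the DNA. The mitotic cyclins and their kinase CDK1 follow, the spindle checkpoint holds the sister chromatids together until every chromosome is attached, and the anaphase-promoting complex ends mitosis. Most hepatocytes of an adult liver are quiescent, while the liver of a young animal still grows by cell division, and immune and blood cells in the tissue can divide as well.

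The total of reads to which the RPKM of each library were scaled was recovered from the steps of the values and lay between 5744908 and 7914515. For every library this total was lower than the number of clean reads that the paper gives. All 8 hepatocyte markers examined passed the filter on low values, and albumin (ALB) lay between 27533 and 53893 RPKM. The libraries differed in RN18S, the gene of the 18S ribosomal RNA. RN18S stood at 5991, 1570 and 62257 RPKM in JH1, JH2 and JH3 and at 7309, 2108 and 20160 RPKM in LD1, LD2 and LD3, so that the third library of each breed was highest and the second lowest. The median of log2(RPKM + 0.1) over all genes tested was 2.10 in both JH3 and LD3 and between 2.35 and 2.42 in the other libraries. Results that rest on these libraries are therefore also given without them.

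Of the 35 members with a row, 32 had at least 0.5 RPKM in at least 3 libraries and were tested. The other 3, namely PLK1, a kinase of mitotic entry, RRM2, the small subunit of ribonucleotide reductase, and TYMS, the thymidylate synthase, were listed at 0 in every library. Genes that most cells use, such as CDK4 and the subunits CDC16, ANAPC2 and ANAPC4 of the anaphase-promoting complex, were likewise listed at 0, so a listed 0 was not read as absence of the transcript. The 9 names without a row were TOP2A, CCND1, MAD2L1, TPX2, MCM5, MCM6, MCM7, TK1 and BIRC5. The gene IDs and synonyms of the RefSeq gene table (Sscrofa11.1) tied 7 further rows to listed names, and 5 of these rows belonged to names without a row of their own. These were TOPOII (TOP2A), LOC100738589 (CCND1), LOC100523455 (MAD2L1), LOC100525546 (TPX2) and LOC100624915 (MCM5, listed at 0). The others were LOC102164100 (MKI67) and LOC100627208 (BUB1, below the filter), and 5 of the 7 rows were tested. These rows were not members by the rule and are given beside the members under their own identifiers.

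The members were transcripts of low abundance. The mean over the 6 libraries was below 5 RPKM for 23 of the 32 members tested and above 10 RPKM for 7, and the reads behind a value ranged from 1 (BUB1B in JH1) to 741 (CDKN1A in LD2).

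**Figure D1:**
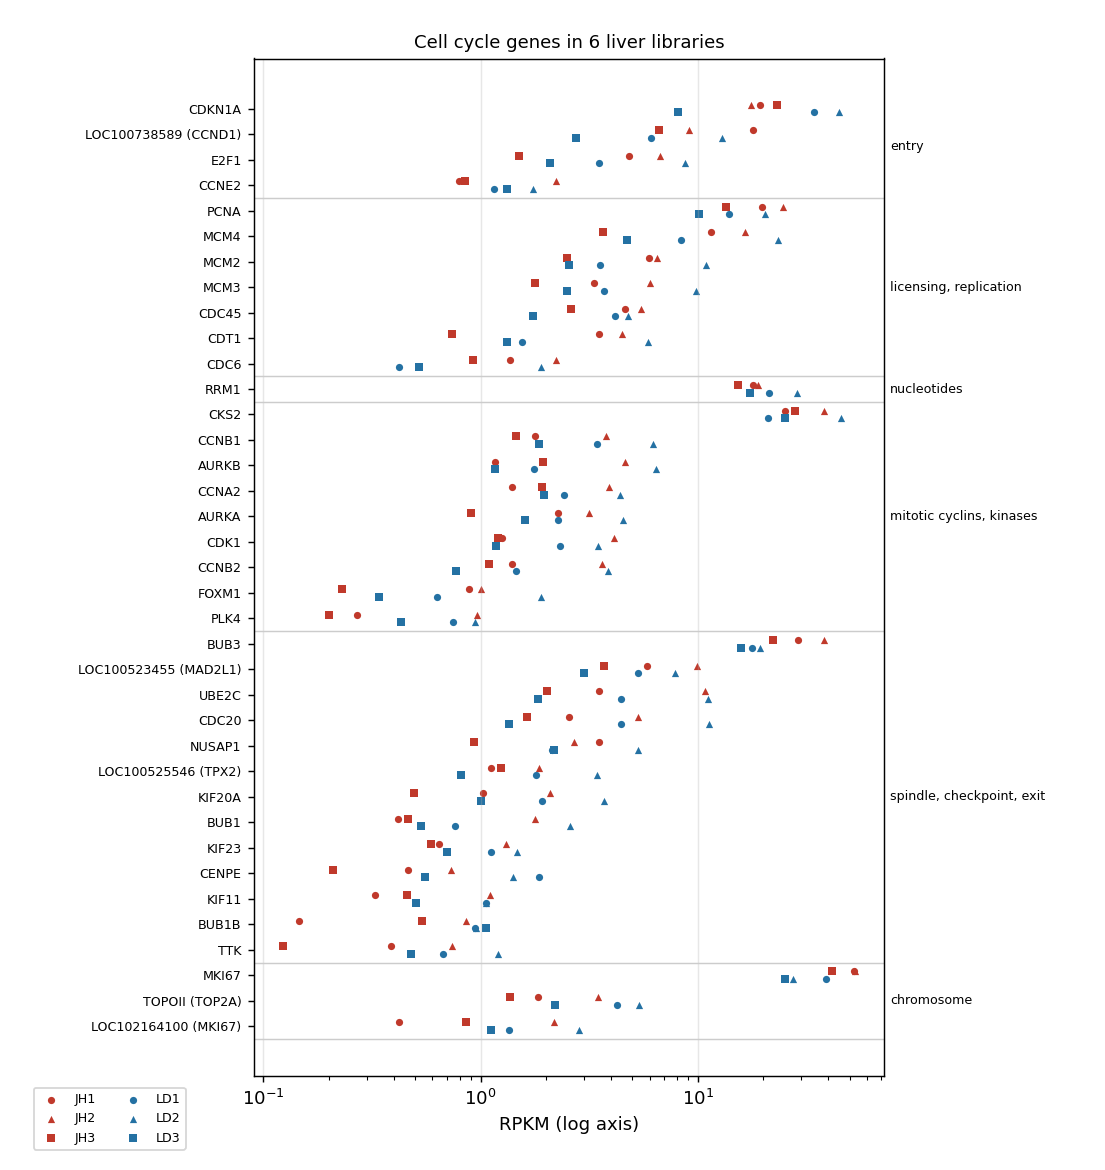
RPKM of each tested member and of the tested rows of other identifiers, on a log axis and grouped by role, with 1 point per library (JH red, LD blue; circle, triangle and square for the libraries 1, 2 and 3). The triangles of JH2 and LD2 lie at the right of most rows and the squares of JH3 and LD3 at the left, while red and blue overlap for all but BUB3, BUB1B and the row MKI67.

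The breeds did not differ in any member past the threshold for DEGs. The values were compared by limma on log2(RPKM + 0.1), with Benjamini-Hochberg adjustment over 12993 genes, and a DEG needed an adjusted p below 0.05 and a change of more than 1 on the log2 scale. This was reached by 0 of the 32 members, against 310 of all genes tested (2.39%, namely 1.02% with JH higher and 1.36% with JH lower). At an unadjusted p below 0.05, limma counted 2 members, BUB3 and the row MKI67, both higher in JH, against 17.9% of all genes tested (8.35% with JH higher and 9.51% with JH lower). A test of the recovered reads with limma's voom also called 0 of the 32 members, against 410 of the 12967 genes it tested. At an unadjusted p below 0.05, voom counted 3 members (BUB3, CENPE and MKI67), against 2357 of these 12967 genes. The 3 JH values lay entirely above the 3 LD values for 2 members and entirely below for 1 member, and such groups without overlap were found for 23.4% of all genes tested (10.8% with JH above and 12.5% with JH below). The lowest adjusted p among the members was 0.197.

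The log2 fold changes of JH over LD were below 0 for 25 of the 32 members, with a median of -0.26 and a range from -1.25 (CENPE) to 0.81 (CDC6), whereas 52.9% of all genes tested were above 0 and their median was 0.04. This direction rested on single libraries. Without LD2, 12 of the 32 members were below 0 and their median was 0.17, and without JH3, 16 were below 0 and the median was 0.03. Without JH2 the median was -0.67 and without LD3 it was -0.64. The members were also measured with less precision than other genes, since the median half-width of the 95% interval of the log2 fold change was 1.24 for the members and 0.73 for all genes tested. The interval of a typical member was thus wider in each direction than the fold limit itself.

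**Figure D2:**
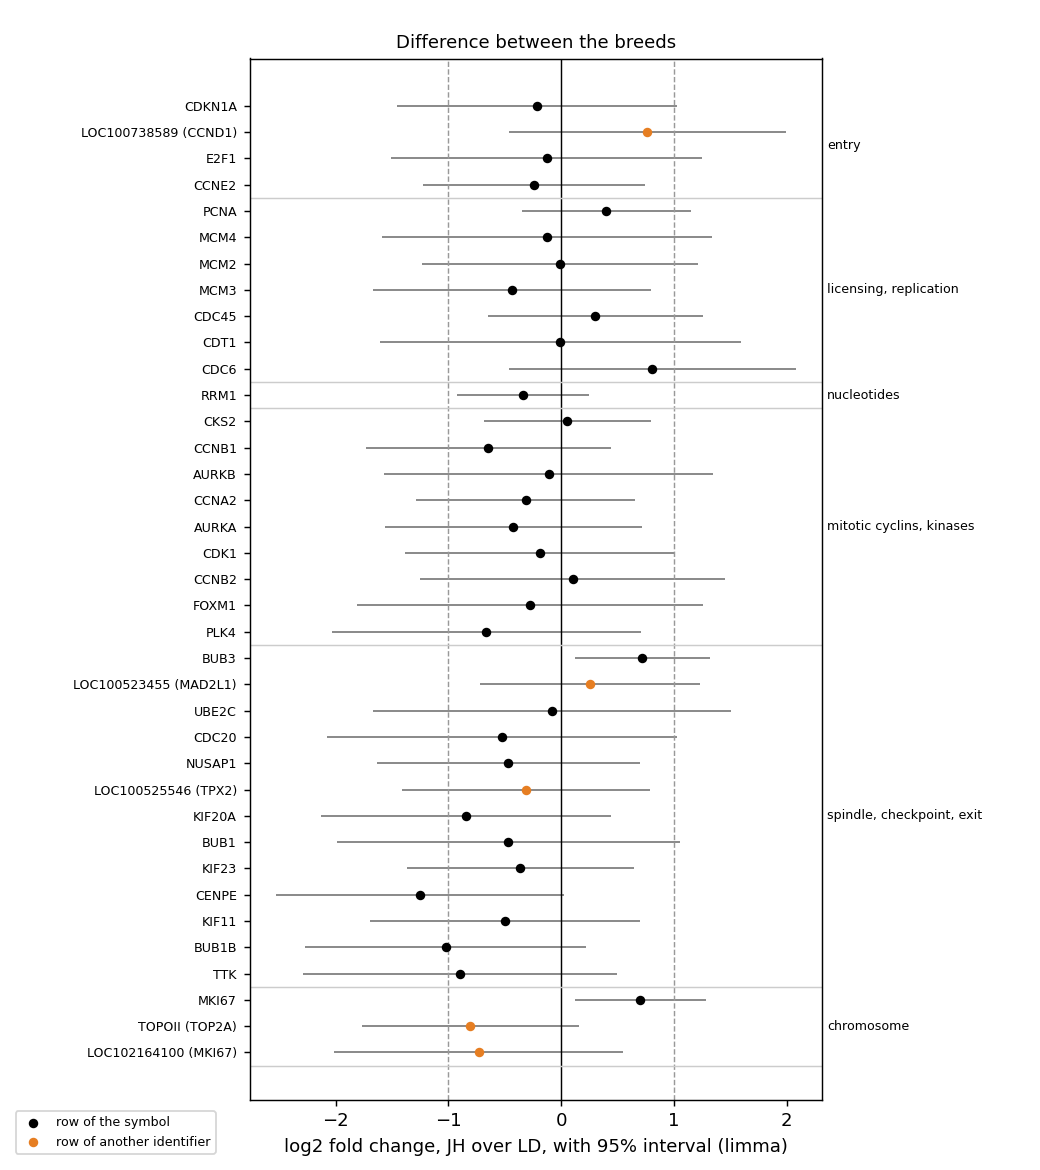
Log2 fold change of JH over LD (limma, log2(RPKM + 0.1)) with its 95% interval for each member (black) and each row of another identifier (orange), with dashed lines at the fold limit. The intervals of BUB3 and the row MKI67 alone do not include 0, and neither of these genes passed the adjusted p.

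Among the genes of entry into the cycle, 0 of the 3 tested members passed the test with limma. CDKN1A, which encodes the cyclin-dependent kinase inhibitor p21, was the most abundant of them. It stood at 19.3, 17.6 and 23.2 RPKM in JH1, JH2 and JH3 and at 34.2, 44.7 and 8.07 RPKM in LD1, LD2 and LD3. The JH values thus lay between the LD values, and the SD was 18.9 RPKM in LD and 2.86 RPKM in JH (n = 3 each). The log2 fold change was -0.22 (limma, standard error 0.55, adjusted p = 0.872), and it became 0.26 without LD2 and 0.06 without LD1. CCNE2, the cyclin E2 of the G1 to S transition, stood at 0.797, 2.24 and 0.846 RPKM in JH and at 1.15, 1.74 and 1.32 RPKM in LD. The JH values enclosed those of LD, and the log2 fold change was -0.24 (limma, standard error 0.44, adjusted p = 0.812). E2F1, the activating transcription factor of the S phase genes, ranged from 1.5 RPKM in JH3 to 6.67 RPKM in JH2 and from 2.09 RPKM in LD3 to 8.70 RPKM in LD2. The row LOC100738589, whose gene ID is that of cyclin D1, stood at 18, 9.11 and 6.63 RPKM in JH and at 6.07, 12.9 and 2.75 RPKM in LD, with a log2 fold change of 0.76 (limma, adjusted p = 0.505). Here JH1 and not JH2 was the highest JH library.

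The 7 tested members of origin licensing and replication had a median log2 fold change of -0.01, with 3 above and 4 below 0. PCNA, the sliding clamp of the DNA polymerases, was the most abundant. Its values were 19.8, 24.8 and 13.4 RPKM in JH1, JH2 and JH3 and 13.9, 20.3 and 10.1 RPKM in LD1, LD2 and LD3. The breeds overlapped (19.3 ± 5.68 RPKM in JH and 14.8 ± 5.16 RPKM in LD, SD, n = 3 each), with a log2 fold change of 0.40 (limma, standard error 0.33, adjusted p = 0.572). CDC6, which loads the MCM helicase on the origins together with CDT1, showed the largest difference of this role. It stood at 1.37, 2.22 and 0.919 RPKM in JH and at 0.422, 1.90 and 0.520 RPKM in LD. LD2 lay among the JH values, and the log2 fold change of 0.81 (limma, standard error 0.56, adjusted p = 0.494) did not pass the threshold.

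The helicase subunits differed more between pigs of 1 breed than between the breeds. MCM4 stood at 11.6, 16.5 and 3.67 RPKM in JH1, JH2 and JH3 and at 8.36, 23.3 and 4.70 RPKM in LD1, LD2 and LD3, values that rested on 64 to 416 reads. Its highest library exceeded its lowest by 4.50-fold in JH and by 4.96-fold in LD, while the log2 fold change between the breeds was -0.13 (limma, 95% interval -1.59 to 1.33). MCM2, MCM3, CDT1 and CDC45, which is a further part of the replicative helicase, had the same order, with the second library of each breed highest and the third lowest. The ratio of the highest to the lowest library lay between 2.08-fold (CDC45) and 6.06-fold (CDT1) in JH for these 4 genes, and between 2.74-fold (CDC45) and 4.43-fold (CDT1) in LD. The summed level of the 7 members was 50.2, 66.0 and 25.7 RPKM in JH and 35.6, 76.9 and 23.5 RPKM in LD.

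For nucleotide supply, RRM1, the large subunit of ribonucleotide reductase, was the only member tested. It stood at 17.9, 18.9 and 15.4 RPKM in JH and at 21.2, 28.6 and 17.4 RPKM in LD. The value of LD3 lay among those of JH. The log2 fold change was -0.34 (limma, standard error 0.26, adjusted p = 0.537). The highest library exceeded the lowest by 1.23-fold in JH, the smallest ratio of the 32 members there, and by 1.65-fold in LD.

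Of the 9 tested mitotic cyclins, kinases and their transcription factor, 7 were below 0 and 2 above, with a median log2 fold change of -0.28. In all 9 the highest JH library was JH2 and the highest LD library LD2. CKS2, a small protein that binds the cyclin-dependent kinases, was the most abundant of them. Its values were 25.2, 38.3 and 27.9 RPKM in JH and 21, 45.5 and 25.2 RPKM in LD, with a log2 fold change of 0.05 (limma, standard error 0.33, adjusted p = 0.951), whose sign changed with the quantile normalization and with the library left out. CDK1, the kinase that drives mitosis, stood at 1.26, 4.12 and 1.2 RPKM in JH and at 2.33, 3.46 and 1.17 RPKM in LD, from 14 to 62 reads per library. Its partner CCNB1 (cyclin B1) stood at 1.79, 3.78 and 1.45 RPKM in JH and at 3.44, 6.19 and 1.85 RPKM in LD. Both genes were highest in JH2 and LD2. PLK4, the kinase that starts the duplication of the centrioles, had the largest difference of this role. It stood at 0.270, 0.961 and 0.201 RPKM in JH and at 0.744, 0.944 and 0.432 RPKM in LD. The groups overlapped and the log2 fold change was -0.66 (limma, standard error 0.61, adjusted p = 0.609). The other members, CCNA2 (cyclin A2), CCNB2 (cyclin B2), the transcription factor FOXM1 and the kinases AURKA and AURKB, had log2 fold changes between -0.42 and 0.10. Without CKS2, the summed level of the 9 rows of this role was 10.4, 25.2 and 8.94 RPKM in JH and 15.1, 31.7 and 9.28 RPKM in LD.

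The 11 tested genes of the spindle, its checkpoint and mitotic exit included the member of lowest log2 fold change, CENPE. BUB3, a checkpoint protein at the kinetochore, was the most abundant and the only one with a log2 fold change above 0. It stood at 28.9, 38.2 and 22.2 RPKM in JH1, JH2 and JH3 and at 17.8, 19.4 and 15.8 RPKM in LD1, LD2 and LD3. Each JH library exceeded each LD library, with means of 29.8 ± 8.03 RPKM in JH and 17.7 ± 1.80 RPKM in LD (SD, n = 3 each). The log2 fold change was 0.72 (limma, standard error 0.27, 95% interval 0.12 to 1.32, adjusted p = 0.197), and the adjusted p ranged from 0.0913 to 0.443 over the alternatives. The exact permutation test of the 3 against 3 values cannot give a two-sided p below 0.1, and this value was reached by BUB3, BUB1B and the row MKI67.

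CENPE, the kinesin that captures microtubules at the centromere, stood at 0.461, 0.728 and 0.209 RPKM in JH and at 1.87, 1.42 and 0.553 RPKM in LD. LD3 lay among the JH values, while LD1 and LD2 exceeded all of them. The log2 fold change of -1.25 (limma, standard error 0.57, 95% interval -2.53 to 0.02, adjusted p = 0.289) was the largest of the members, and it ranged from -1.72 to -0.61 over the alternatives. BUB1B, the checkpoint kinase homologue BUBR1, stood at 0.145, 0.861 and 0.539 RPKM in JH and at 0.940, 0.952 and 1.05 RPKM in LD. All JH values were below all LD values, but they rested on 1, 8 and 5 reads against 8, 9 and 10 reads, and the log2 fold change was -1.02 (limma, standard error 0.55, adjusted p = 0.373). The median log2 fold change of this role was -0.50, and 10 of the 11 members were below 0.

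CDC20, which activates the anaphase-promoting complex, and UBE2C, the ubiquitin-conjugating enzyme of that complex, showed the widest range among pigs of LD. CDC20 stood at 2.55, 5.33 and 1.64 RPKM in JH and at 4.41, 11.3 and 1.35 RPKM in LD, a ratio of the highest to the lowest LD library of 8.40-fold. UBE2C stood at 3.50, 10.8 and 2.02 RPKM in JH and at 4.41, 11.2 and 1.84 RPKM in LD, with nearly the same values in both breeds and a log2 fold change of -0.08 (limma, 95% interval -1.66 to 1.5). The checkpoint kinases BUB1 and TTK, the spindle protein NUSAP1 and the kinesins KIF11, KIF20A and KIF23 had log2 fold changes between -0.90 and -0.36, with overlapping groups in each case. The row LOC100523455, whose gene ID is that of the checkpoint protein MAD2L1, stood at 5.85, 9.92 and 3.71 RPKM in JH and at 5.32, 7.89 and 3.01 RPKM in LD. Without BUB3, the summed level of the role was 13, 27.4 and 7.48 RPKM in JH1, JH2 and JH3, and it was 19.3 RPKM in LD1 and 40.2 RPKM in LD2 with LD3 the lowest of LD.

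For MKI67, the gene of the proliferation antigen Ki-67, the tables held a pair of rows that disagreed. The row MKI67 stood at 52.3, 53.2 and 41.6 RPKM in JH and at 39.0, 27.4 and 25.1 RPKM in LD, without overlap and with a log2 fold change of 0.70 (limma, standard error 0.26, 95% interval 0.12 to 1.28, adjusted p = 0.197). The row LOC102164100, whose gene ID RefSeq gives to MKI67, stood at 0.421, 2.18 and 0.860 RPKM in JH and at 1.35, 2.85 and 1.12 RPKM in LD, with overlap and a log2 fold change of -0.73 (limma, standard error 0.57, adjusted p = 0.545). The signs of these differences were opposite. The level of the row MKI67 exceeded that of the gene ID row by 9.61-fold (LD2) to 124-fold (JH1), and the recovered gene lengths were 1551 and 9922 bases.

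The rows also differed in how they followed the other mitotic genes. The gene ID row was highest in JH2 and LD2, as were CDK1 and TOPOII, the row of the topoisomerase gene TOP2A, whereas the row MKI67 was nearly as high in JH1 as in JH2 and was highest in LD1 among the LD libraries. TOPOII stood at 1.84, 3.49 and 1.37 RPKM in JH and at 4.25, 5.38 and 2.19 RPKM in LD, with a log2 fold change of -0.81 (limma, standard error 0.43, adjusted p = 0.363). Which transcript the row MKI67 measured cannot be read from the tables, so its difference between breeds is not attributed here to the Ki-67 gene.

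**Figure D3:**
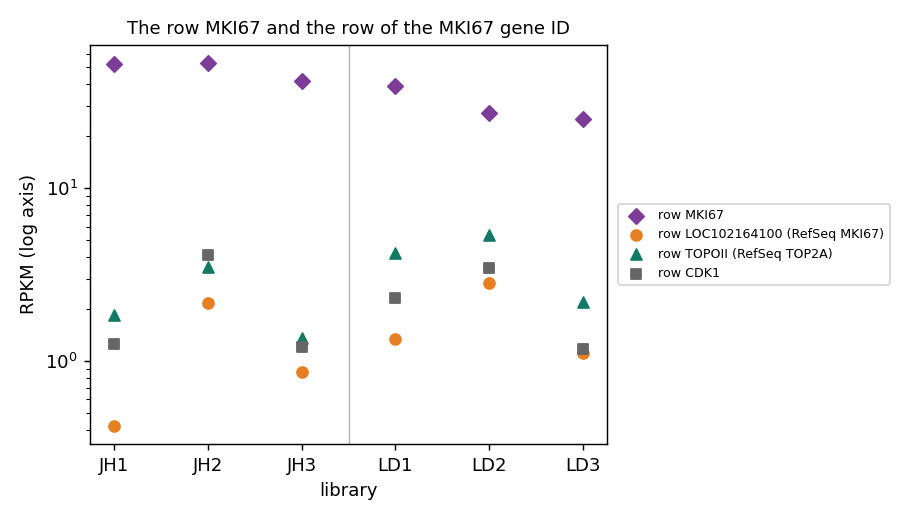
RPKM on a log axis in each of the 6 libraries for the row MKI67 (diamonds), the row of the MKI67 gene ID (circles), TOPOII (triangles) and CDK1 (squares). The row MKI67 lies between 25.1 and 53.2 RPKM in every library, whereas the other rows lie below 6 RPKM and peak in JH2 and LD2.

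The members differed widely between pigs of the same breed. JH2 was the highest JH library for 30 of the 32 members (93.8%), against 39.2% of all genes tested, and LD2 was the highest LD library for 28 members (87.5%), against 46.3% of all genes tested. Both held for 26 members (81.2%), against 17.8% of all genes tested. JH3 was the lowest JH library for 24 members (75%), against 55.8% of all genes tested, and LD3 the lowest LD library for 27 (84.4%), against 56.5%. These libraries were singled out after the values had been seen, the replicate numbers do not link pigs of different breeds, and the counts are given as a description without a test.

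In size, the median difference of JH2 over JH3 was 1.38 on the log2 scale for the members and 0.31 for all genes tested, and that of LD2 over LD3 was 1.47 for the members and 0.28 for all genes tested. Against the first library of the breed, the median difference was 0.72 for JH2 and 0.87 for LD2, whereas it was -0.02 and 0.04 for all genes tested. The median SD within a breed was 0.83 on the log2 scale for the members and 0.39 for all genes tested. The exact Poisson 95% intervals of the reads, which cover counting error only, were separate between the highest and the lowest library for 29 of the 32 members in JH and for 25 in LD. These libraries were picked gene by gene as the extremes, and the count was not made for all genes tested. It thus does not set the members apart from other genes. The exceptions to the order were few. CDKN1A was highest in JH3 and NUSAP1 in JH1, while BUB1B was highest in LD3 and KIF11, CENPE and the row MKI67 were highest in LD1. Of the 5 tested rows under another identifier, 4 were highest in both JH2 and LD2.

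**Figure D4:**
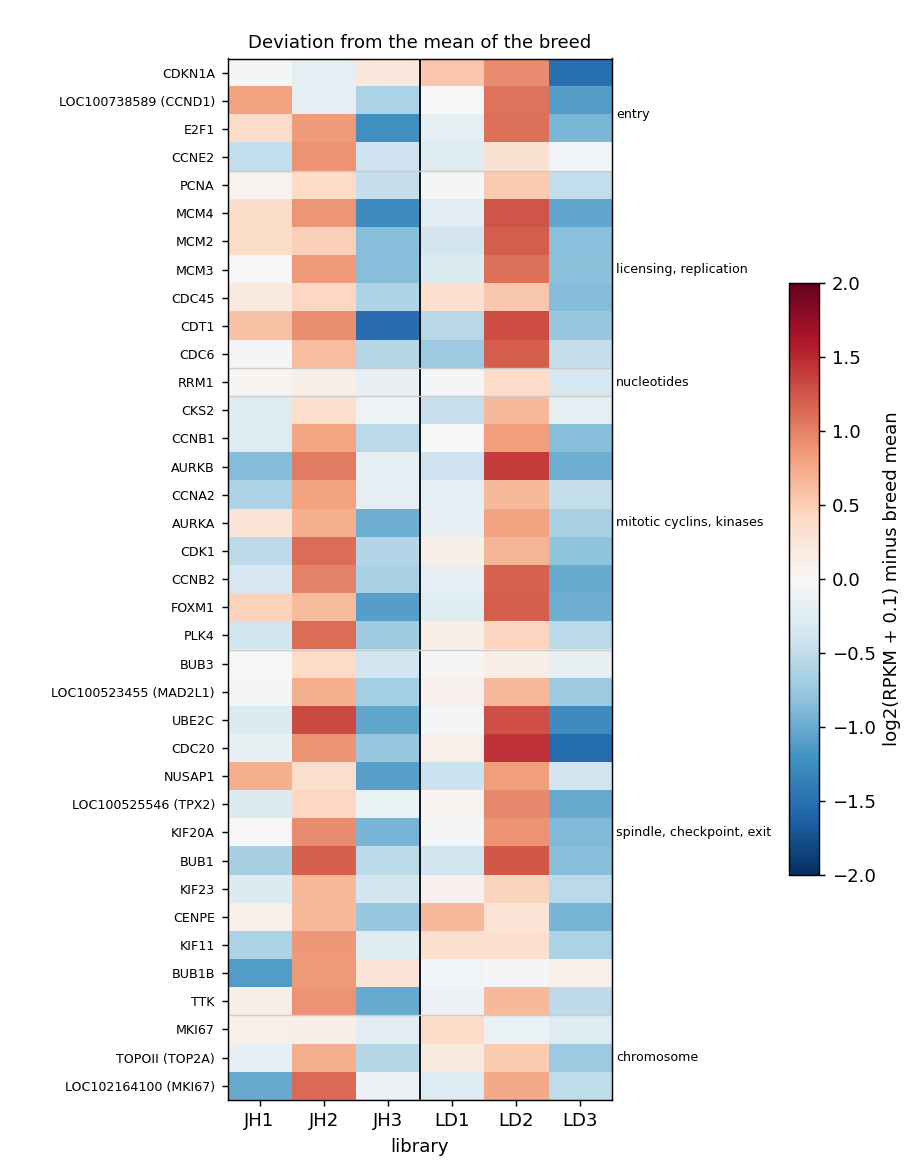
Deviation of log2(RPKM + 0.1) in each library from the mean of its breed, for each tested member and row of another identifier (red above, blue below the breed mean). The columns of JH2 and LD2 are red for most genes, with 30 of the 32 members above their own mean over the 6 libraries in each, and the columns of JH3 and LD3 are blue, with 2 of the 32 members above it in each.

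The order of the libraries was the reverse of that of RN18S, which was lowest in JH2 and LD2 and highest in JH3 and LD3. After each library had been shifted to the same median over all genes tested, JH2 and LD2 were both highest for 25 members (78.1%), against 10.5% of all genes tested, and the median differences were 1.06 for JH2 over JH3 and 1.17 for LD2 over LD3, against -0.00472 and -0.01 for all genes tested. The part of RN18S in the order of the members was not tested beyond this scaling. Without JH3 and LD3 the median log2 fold change of the members between breeds was -0.28 and 24 of the 32 were below 0. Leaving out JH3 alone or LD3 alone moved this median in opposite directions, as given above.

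Markers of other cells of the liver also differed between these pigs, and their part in the members' levels was not tested. The 11 listed genes of lymphocytes and plasma cells summed to 93.3 RPKM in JH2 and to between 27.8 and 28.1 RPKM in JH1 and JH3, whereas they summed to 34.1 RPKM in LD2 and to 31.5 and 32.3 RPKM in LD3 and LD1. Among them, 5 T cell genes (CD3D, CD3E, CD2, CD8A and LCK), taken out after their values had been seen, summed to 64.6 RPKM in JH2 and to 21.1 RPKM in LD2. JH2 thus stood apart from JH1 and JH3 in these genes, while LD2 differed little from LD1 and LD3. The 7 macrophage rows summed to 1693 RPKM in JH2 and to between 704 and 1025 RPKM in the other libraries, with the defining marker CD163 listed at 0 in every library.

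Of the erythroid precursor genes, KLF1 was listed at 0 in 5 of the 6 libraries. The 7 erythroid rows summed to between 90.4 and 123 RPKM in JH and between 214 and 393 RPKM in LD, nearly all of it from the globin gene HBB, and LD2 was the lowest of LD. The 8 rows of stellate cells and fibroblasts summed to between 77.1 and 87.4 RPKM in JH, and to 264, 339 and 174 RPKM in LD1, LD2 and LD3. Among these rows COL1A1, COL3A1 and PDGFRB were highest of LD in LD2, whereas DES, RGS5, LRAT, DCN and ACTA2 were highest in LD1. The 2 bile duct rows summed to 4.84, 9.15 and 4.41 RPKM in LD1, LD2 and LD3. The 6 endothelial rows summed to between 58.6 and 69.6 RPKM in JH and between 84.0 and 95.1 RPKM in LD, and the 8 hepatocyte rows to between 57459 and 70323 RPKM in JH and between 73234 and 87746 RPKM in LD. In bulk tissue, fewer cells of a type and less RNA per cell cannot be told apart.

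**Figure D5:**
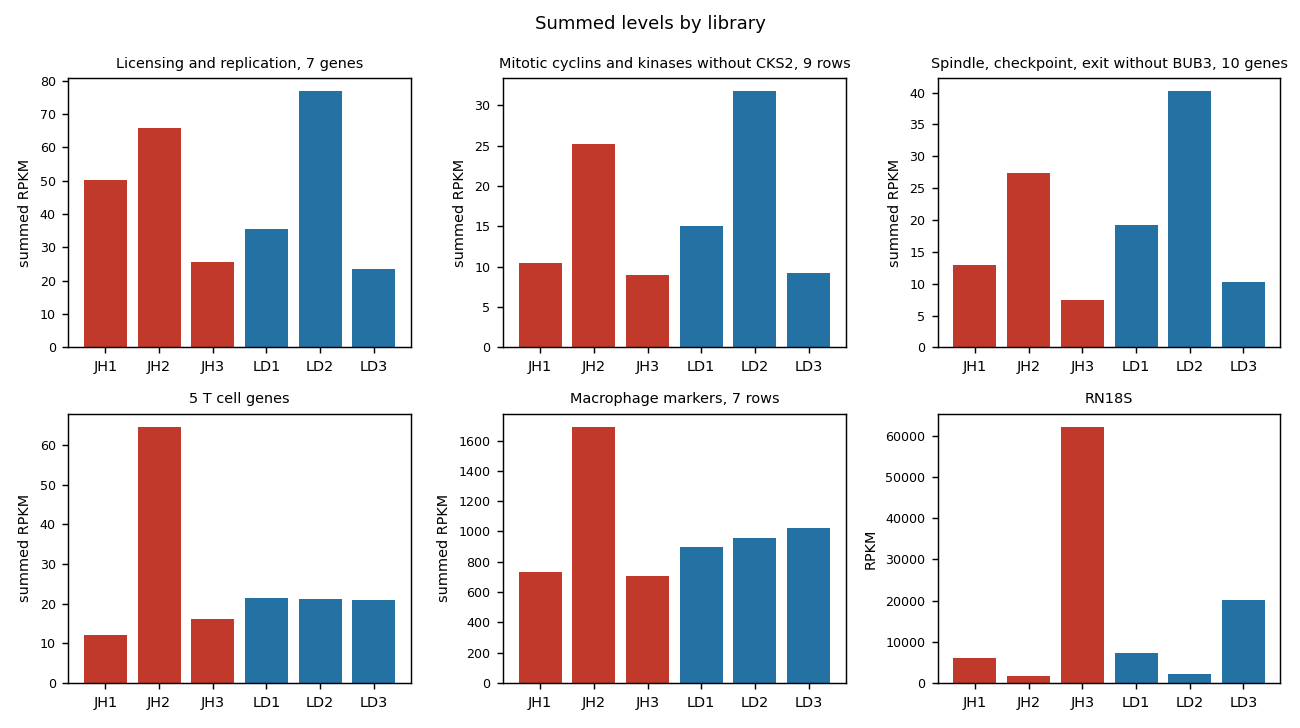
Summed RPKM in each library (JH red, LD blue, bars from 0) for 3 roles of the members, for 5 T cell genes and for the macrophage rows, and the RPKM of RN18S. The sums of the members are highest in JH2 and LD2, the T cell and macrophage sums in JH2 stand above those of the other 5 libraries, and RN18S is highest in JH3 and LD3. Most of the macrophage sum is from C1QA and C1QC.

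The wider cell cycle was read from a list of 177 further genes, of which 152 had a row and 125 were tested. With limma, 0 of the 125 genes were called, against 2.39% of all genes tested, and 11 had an unadjusted p below 0.05, of which 5 were higher in JH and 6 were lower, against 17.9% of all genes tested (8.35% with JH higher and 9.51% with JH lower). Voom also called 0 of them. The median log2 fold change was -0.03. JH2 and LD2 were both highest for 66 of the 125 genes (52.8%), against 81.2% of the members and 17.8% of all genes tested. The order of the libraries was thus found in a smaller part of this list than of the members, but in a larger part than of all genes tested. Of the 52 tested genes of mitosis, 17 were above 0 and 35 below, with a median of -0.25, and of the 37 tested genes of replication 23 were above 0, against 52.9% of all genes tested. At the same level of p, 3 genes of mitosis were lower in JH and 0 higher, and 3 genes of replication were higher in JH and 1 lower.

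BTG2, an antiproliferative target of p53, came closest to the threshold. It stood at 19.2, 13.4 and 15.1 RPKM in JH and at 29.1, 35.3 and 28.7 RPKM in LD, with all JH values below all LD values. The log2 fold change was -0.97 (limma, standard error 0.24, adjusted p = 0.0818). Among the genes of mitosis, CKAP5, a microtubule polymerase of the spindle, stood at 0.371, 0.206 and 0.826 RPKM in JH and at 1.28, 1.62 and 2.02 RPKM in LD, from 3 to 30 reads per library. Its groups did not overlap and its log2 fold change was -1.74 (limma, standard error 0.49, adjusted p = 0.107). The row LOC100519182, which RefSeq also gives to CKAP5, was looked up after the values had been seen and had a log2 fold change of -0.35 with overlapping groups (limma, adjusted p = 0.508). SMC2, the condensin subunit that compacts chromosomes, stood at 2.30, 0.654 and 2.06 RPKM in JH and at 5.84, 5.78 and 3.23 RPKM in LD, with a log2 fold change of -1.63 (limma, standard error 0.46, adjusted p = 0.114). In SMC2 the library JH2 was the lowest of JH, opposite to its place in most members. CENPF, a kinetochore protein, stood at 0.495, 0.960 and 0.367 RPKM in JH and at 1.43, 2.57 and 1.16 RPKM in LD, with a log2 fold change of -1.38 (limma, adjusted p = 0.165).

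Higher in each JH library than in each LD library were TFDP1, the partner of the E2F factors, POLE3, a histone-fold subunit of DNA polymerase epsilon, and RPA1, the large subunit that coats single-stranded DNA. TFDP1 stood at 14.2, 18.5 and 12 RPKM in JH and at 9.20, 9.61 and 6.14 RPKM in LD, with a log2 fold change of 0.84 (limma, standard error 0.28, adjusted p = 0.164). The log2 fold changes of POLE3 and RPA1 were 0.65 and 0.60, with adjusted p of 0.210 and 0.252 by limma. Lower in each JH library were CCND2, cyclin D2, with a log2 fold change of -0.86, and RFC1, the large subunit of the clamp loader, with a log2 fold change of -0.56, at adjusted p of 0.210 and 0.249 by limma. The values of CCND2 rested on only 5, 4 and 7 reads in JH and on 11, 9 and 12 reads in LD. LIN37, a subunit of the DREAM complex, was also higher in JH at an unadjusted p below 0.05, but its groups overlapped (limma, log2 fold change 1.11, adjusted p = 0.170). These genes all missed the threshold for DEGs.

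The small RNA libraries of the same pigs held 18 tested miRNAs that lie in introns of cell cycle genes, belong to the family of miR-17 to miR-92 clusters or respond to p53. Their RPM, a read number corrected for the depth of the small RNA library, were compared with limma on log2(RPM + 0.5). At the same threshold as for genes, 1 of the 18 was called, against 9.54% of the 241 miRNAs tested, and the same miRNA was the only one at the unadjusted threshold of the study's methods, against 12.4%. This was ssc-miR-34a, a target of p53, at 6.02, 8.85 and 4.50 RPM in JH and at 45.0, 44.1 and 64.2 RPM in LD. All JH values were below all LD values, and the log2 fold change, again JH over LD, was -2.92 (limma, standard error 0.28, adjusted p = 7.43e-05). Of the 17 tested genes of the list of cycle inhibitors and p53 targets, BTG2 was the 1 gene whose groups did not overlap, against 23.4% of all genes tested, and the member CDKN1A, another target of p53, overlapped as given above.

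The miRNAs of the proliferative clusters differed little. ssc-miR-17-5p stood at 138, 119 and 130 RPM in JH and at 150, 174 and 187 RPM in LD, and its groups did not overlap. The log2 fold change was -0.40 (limma, standard error 0.21, adjusted p = 0.234). ssc-miR-20a stood at 416, 516 and 533 RPM in JH and at 580, 617 and 635 RPM in LD, likewise without overlap, with a log2 fold change of -0.33 (limma, adjusted p = 0.326). Of the 18 miRNAs, 12 were lower in JH, with a median log2 fold change of -0.31, against 76.8% of all miRNAs tested and a median of -0.30. ssc-miR-15b and ssc-miR-16, listed for the cluster within the condensin gene SMC4 of mammals, had log2 fold changes of -0.25 and -0.38 without passing the threshold. They were the only tested miRNAs listed for introns of cell cycle genes, and the reads of ssc-miR-16 were not traced to a locus. The order of the members was not that of these miRNAs, since ssc-miR-20a was highest in JH3 and LD3 and ssc-miR-19a, at 14.3, 8.61 and 6.28 RPM in JH and 9.14, 7.94 and 5.31 RPM in LD, was highest in JH1 and LD1.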

How the data were processed

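Liver mRNA and small RNA of 3 JH and 3 LD pigs were analysed, grouped by the public labels. For mRNA, the authors filtered 50 bp single reads, aligned them with TopHat2 2.0.13 (also named in the submitters' processing notes) to an earlier pig assembly, used gfold to count the reads of each gene and deposited RPKM per library. For small RNA, the authors deposited RPM values, which divide the reads of each miRNA by the number of clean small RNA reads. No deposited file holds counts, so the count test foreseen in the design was replaced by limma, also foreseen there.

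Genes with at least 0.5 RPKM in at least 3 libraries were compared by limma 3.58.1 (R 4.3.3; lmFit, eBayes with trend) on log2(RPKM + 0.1), and miRNAs with at least 1 RPM in at least 3 libraries on log2(RPM + 0.5), with Benjamini-Hochberg adjustment over all features tested. These fold changes understate the change of low genes. DEGs had an adjusted p below 0.05 and a change of more than 1 on the log2 scale in either direction. Each pig gave 1 library, so p-values measure the spread between 3 pigs per breed.

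Reads were recovered from the RPKM steps by a search for library totals and gene lengths that make the 6 values of a gene whole (tolerance 0.3 reads). Of 19614 genes above 0, 16877 (86.05%) were resolved, holding between 56.85% and 71.75% of the recovered total of a library, and all tested members were among them. In a simulated set, 16126 of 19095 genes could be resolved, and the reads were exact for 98.42% of them. Read intervals were exact Poisson intervals at 95%, and reads are not independent molecules. The limma test was also run on simulated data: with 200 of 12993 genes given a log2 change of 2 it called 127 of them with 9 false calls, and without any change it called 0.

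The members, role lists, wider lists and marker lists were chosen with earlier results of these data known. Members named with all values are those at an unadjusted p below 0.05 and, in each role, the one of highest mean and that of largest absolute log2 fold change. Genes of the wider lists are named at an unadjusted p below 0.05 without overlap of the groups, apart from an item that is not reported here. Other members (MCM4, CDK1, CCNB1, E2F1, CDC20, UBE2C, BUB1B), the rows under other identifiers and the miRNAs other than ssc-miR-34a were named after their values had been seen. Rows under other identifiers were found through RefSeq gene IDs and synonyms of Sscrofa11.1, and no coordinates or sequences are given. Alternatives were other pseudocounts and filters, quantile and median scaling, the replicate number as a block, each library left out, no fold limit and voom on recovered reads. Python 3.11.15, numpy 2.4.6, pandas 2.3.3, scipy 1.17.1 and matplotlib 3.10.9 were used for tables and plots.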

Additional observations from a re-analysis of the deposited data

How the results depend on the processing

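Under the 16 alternatives, 0 members were called. All genes called were 310 as reported, 200 without a filter on low values, between 79 (without LD1) and 406 (without JH3) with 1 library left out, and 125 without JH3 and LD3, an alternative chosen after seeing the data. Counts with the other pseudocounts, the stricter filter, quantile and median scaling, no fold limit and voom were within 1.5 times of 310. Genes of the wider list called were 0, but 1 with quantile normalization (BTG2, log2 fold change -1.10, adjusted p = 0.0332 by limma) and between 0 and 2 with 1 library left out (2 without JH3, 1 of them CKAP5 at -2.17 with an adjusted p of 0.0470 by limma).

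The members at an unadjusted p below 0.05 by limma were 2 as reported, between 1 and 4 with 1 library left out, and 4 without JH3 and LD3. With all libraries 17.9% of all genes tested were at this p, and their share was not counted for the fits with libraries left out. Members below 0 were 25 as reported and between 12 (without LD2) and 28 (without LD3) with 1 library left out, and their median log2 fold change moved between -0.67 and 0.17. The sign of CKS2 was reversed with quantile normalization (-0.0937), without JH2 (-0.12), without LD1 (-0.176) and without LD3 (-0.05), that of CDKN1A without LD1 (0.06) and without LD2 (0.257), and that of CCNE2 without JH1 (0.000509). With 1 library left out these log2 fold changes ranged from -0.176 to 0.379 for CKS2, from -0.971 to 0.257 for CDKN1A and from -0.689 to 0.000509 for CCNE2. The cause of these changes was not tested beyond the library left out. Of 318 values of named genes under alternatives, 309 kept their direction and side of the threshold. The 54 values of the log2 ratio of summed role levels, JH over LD, moved by less than the spread between replicates, but the sign changed in 4 roles: with 1 library left out the ratio ranged from -0.853 to 0.28 for entry (-0.182 with all), from -0.251 to 0.605 for licensing (0.135), from -0.338 to 0.308 for mitotic cyclins and kinases (-0.0687) and from -0.129 to 0.483 for the spindle genes (0.17). ssc-miR-34a was the 1 call among the listed miRNAs in all alternatives run.

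The replicate numbers 1 to 3 occur in both breeds, but nothing in the labels pairs the pigs, and the deviations from the breed means correlated over genes with r of -0.02, 0.05 and 0.18 for the numbers 1, 2 and 3, with JH1 correlating best with LD2 and JH2 with LD1. With the number as a replicate block, 253 genes and 0 members were called, and 5 members had an unadjusted p below 0.05. The share of all genes at this p was not counted for that fit.

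Depth limited BUB1B, which rested on at most 10 reads per library. Other members also had few reads in some libraries. Examples are PLK4 with 5 reads in JH1 and in JH3, TTK with 3 in JH3, BUB1 with 4 in JH1 and CDC6 with 8 in LD1.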
